A study of Drosophila melanogaster with 4 samples.

Results

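Among the small RNAs of male third-instar larvae of Drosophila melanogaster, the RNAs of exactly 22 nt that begin with A, C or G numbered 3220 distinct sequence tags. They were taken as every listed tag of that length with no unread base (N) and with one of those 3 first bases, out of 5502 tags of 22 nt with any first base and 252353 tags of all lengths. A began 1510 of them, C 931 and G 779. The study compared 2 genotypes. The snapback males carried a construct whose transcript folds back into double-stranded RNA of the 1.688 satellite, a tandem repeat named for its buoyant density in g/cm3, and the yw males were of a laboratory reference strain without it. Each genotype had 2 libraries, each made from the total RNA of 50 pooled larvae and enriched for small RNA. The labels give neither the driver of the construct nor whether both samples of a genotype were grown separately. Any p-value here therefore reflects only how far these samples lie apart, and that scatter may be technical.

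RNAs near 22 nt in flies are largely microRNAs, which Dicer-1 cuts from hairpin precursors and which Argonaute proteins carry to messenger RNAs. Bases 2 to 8, the seed, do most of the pairing with a target, so RNAs with the same seed are treated as a family. The first base sits in a pocket of the Argonaute protein and is often T (U in RNA), which makes RNAs beginning with A, C or G the less usual class. The 5′ end fixes the seed, whereas the 3′ end is more variable because it can be trimmed or extended after cutting. In whole larvae, fragments of ribosomal RNA, tRNA and other long RNAs also fall in this length range, and fewer cells of a type cannot be told apart from less RNA per cell.

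The tags were not placed on chromosomes here, so none is printed whole and none carries a gene or miRNA name. A tag is called by its first base and its seed, so that A-AGGGTCG is an A followed by the seed AGGGTCG, and by its last 3 bases where several tags share that name. Its rank is by mean level among the tags with the same first base.

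The libraries listed 5330415 and 7782397 reads in snapback replicates 1 and 2, and 20453996 and 15183229 reads in yw replicates 1 and 2. Of these, 89699, 126968, 1500933 and 971385 reads were 22 nt long, or 1.68%, 1.63%, 7.34% and 6.40%. The 22 nt class thus took a mean share in snapback that was 0.241 times that in yw. Levels are given as reads per 1000000 listed 22 nt reads of the same library (22 nt RPM) and, where stated, as reads per 1000000 listed reads of all lengths (all-length RPM). A ratio of snapback to yw is larger on the first scale because the 22 nt class was smaller in snapback. Each list begins at 4 reads, so an absent tag had at most 3 reads, equal to 33.4, 23.6, 2.00 and 3.09 in 22 nt RPM in the 4 libraries in the same order. The yw libraries could therefore show much rarer tags. The labels do not say which libraries were prepared together, so genotype and preparation cannot be told apart in any difference below.

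Of the 3220 tags, few were found everywhere. There were 603 and 788 in the snapback libraries and 2191 and 1304 in the yw libraries. One library alone listed 2051 of them, and 179 were in all 4. Only snapback libraries listed 579, only yw libraries 2260, and both genotypes 381. The 179 tags found in all 4 libraries held 87.0% and 87.4% of the reads of the class in snapback, and 69.8% and 63.3% in yw. Most tags were rare, with a median of 8 reads in every library, while 296, 255, 97 and 93 tags reached a level of 100 in 22 nt RPM.

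RNAs beginning with A, C or G made up a far larger part of the 22 nt reads in snapback. Their share was 43.1% (exact Clopper-Pearson 95% interval 42.8 to 43.4) and 49.95% (49.7 to 50.2) in snapback replicates 1 and 2, against 10.8% (10.7 to 10.8) and 7.67% (7.62 to 7.72) in yw replicates 1 and 2. The groups did not overlap and differed by 37.3 percentage points (46.5% ± 4.86 against 9.21% ± 2.18, mean ± SD, n = 2 each). The exact two-sided permutation test over libraries gave p = 0.333, the smallest value that 2 libraries against 2 allow, so no share in this design could pass 0.05. Intervals and floors cover counting error only, since reads were not collapsed to molecules. In all-length RPM the same RNAs stood at 7215 and 8135 in snapback and 7880 and 4901 in yw, and on that scale the groups overlapped. Counted as distinct tags rather than reads, their share of the 22 nt tags differed by 5.49 percentage points.

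**Figure D1:**
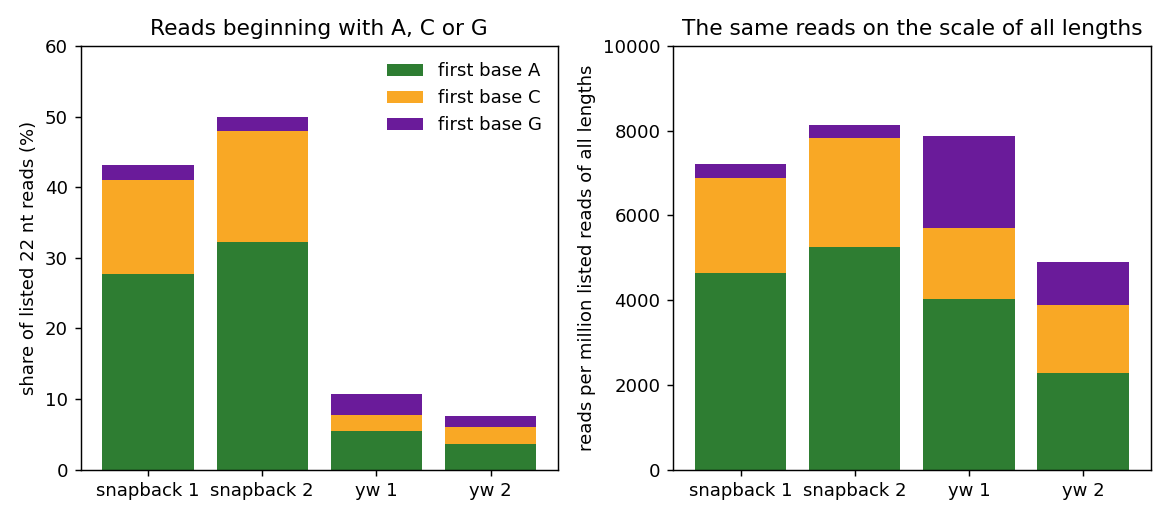
Left, stacked bars give the share of listed 22 nt reads (percent, linear axis from 0) that began with A, C or G in each of the 4 libraries; right, the same reads in all-length RPM. The snapback bars reach 43.1% and 49.95% on the left against 10.8% and 7.67% in yw, whereas on the right yw replicate 1 stands between the snapback libraries.

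The 3 first bases did not share in this equally. RNAs beginning with A stood at 276358 and 321467 (22 nt RPM) in snapback and 54798 and 35704 in yw. Those beginning with C stood at 131986 and 157859 against 22796 and 25032. Both sets were higher in each snapback library than in either yw library. RNAs beginning with G stood at 20435 and 19296 in snapback and 29797 and 15867 in yw, and these groups overlapped. In all-length RPM the G-first RNAs stood at 344 and 315 in snapback and 2187 and 1015 in yw, a mean 4.86-fold higher in yw with no overlap. As a share of the reads of the class, A took 64.5% and 64.5% in snapback and 51.0% and 46.6% in yw, a difference of 15.6 percentage points (exact permutation p = 0.333). G took 4.77% and 3.87% in snapback and 27.7% and 20.7% in yw, a snapback minus yw difference of -19.9 percentage points (exact permutation p = 0.333). C took 30.8%, 31.7%, 21.2% and 32.7%, with overlapping groups, a difference of 4.27 points that turned to -1.46 without yw replicate 1. The A difference rested largely on single tags. With the commonest tag of each library left out, it was 5.12 points with overlapping groups (exact permutation p = 1), and that of C was 18.5 points without overlap. The tag left out began with A in 3 libraries and with C in yw replicate 2. With A-AGGGTCG ending in CCT left out of all 4 libraries instead, a choice made after seeing the data, the difference was 1.25 points for A with overlapping groups and 17.1 points for C without overlap.

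A handful of tags held most of the reads. The most abundant one held 27.4% and 31.7% of the reads of the class in snapback and 23.1% and 11.2% in yw. The 10 most abundant held 70.4% and 74.6% in snapback against 57.3% and 46.4% in yw, a difference of 20.6 percentage points (72.5% ± 2.98 against 51.9% ± 7.72, n = 2 each, exact permutation p = 0.333). It took 4 and 3 tags to reach 50% of these reads in snapback, and 5 and 13 in yw. Reads beginning with T ran the other way, their 10 leading tags holding 78.0% and 73.7% in snapback and 88.9% in both yw libraries. Within the G set, the leading tag took 8.07% and 9.63% of the reads in snapback and 57.2% and 27.95% in yw.

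Of the A-first RNAs, A-AGGGTCG ending in CCT (rank 1) was the most abundant of the whole class in snapback. It stood at 117582 and 158213 (22 nt RPM) in snapback and at 657 and 1200 in yw. The groups lay far apart, with a ratio of means of 148 (115 without yw replicate 1, 210 without yw replicate 2), or 36.5 in all-length RPM. A fit across all tags with edgeR's quasi-likelihood test and TMM scaling, which assumes that most tags do not change, gave a log2 difference of 4.14 ± 0.66 (SE, adjusted p = 0.00154). A-CCCTGTA (rank 2) followed with 41171 and 53478 against 1169 and 1141, and was 41.0-fold higher in 22 nt RPM and 9.86-fold in all-length RPM (edgeR log2 2.26 ± 0.65, adjusted p = 0.0109). A-GGGTCGG (rank 4) stood at 16912 and 18973 against 269 and 471 (edgeR log2 2.51 ± 0.75, adjusted p = 0.0134). These 3 tags had no overlap between groups and were higher in snapback on each of the 3 scales.

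A-TAGGGAC (rank 3) went the opposite way, at 2865 and 3048 (22 nt RPM) in snapback and 24857 and 7904 in yw. It was the most abundant member in yw replicate 1, and the yw libraries differed from each other by more than the snapback mean. The ratio of yw to snapback was 5.54 (2.67 without yw replicate 1, 8.41 without yw replicate 2) and 23.8 in all-length RPM (edgeR log2 -5.60 ± 0.82, adjusted p = 0.00154). For A-ATAGGGA (rank 5) the direction depended on the scale. It stood at 11449 and 12578 (22 nt RPM) in snapback and 3794 and 2505 in yw, 3.81-fold higher in snapback, but at 193, 205, 278 and 160 in all-length RPM the groups overlapped. With TMM scaling edgeR gave -1.18 ± 0.67 (adjusted p = 0.130), and with 22 nt reads as library totals 1.93.

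**Figure D2:**
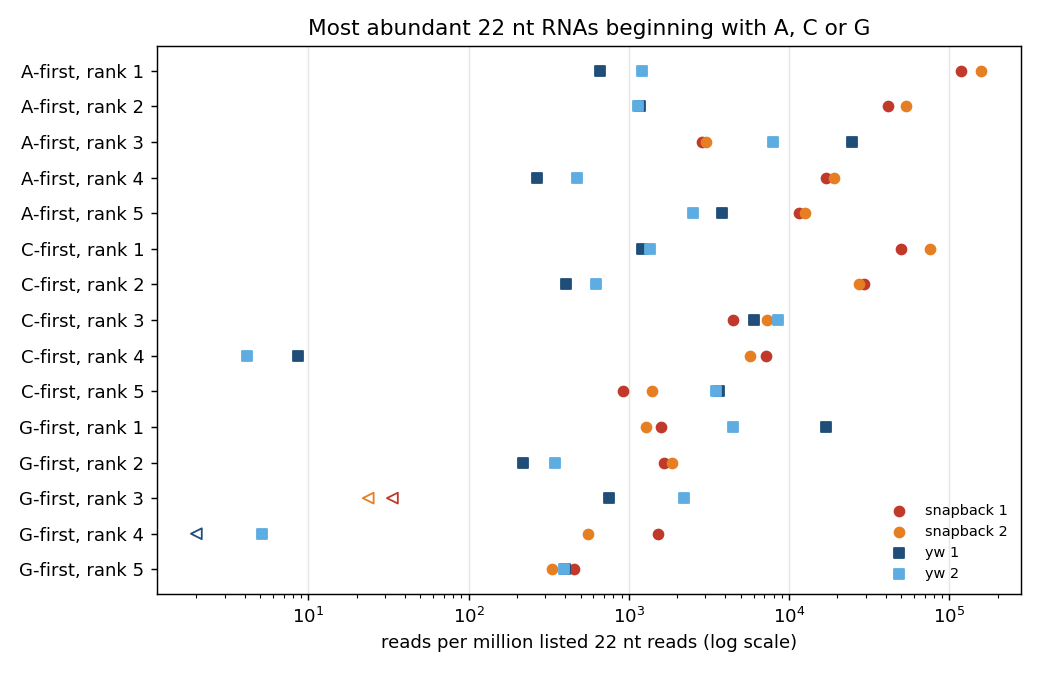
Each row is one of the 5 most abundant tags beginning with A, C or G, and each point is its level in 1 library in reads per 1000000 listed 22 nt reads (logarithmic axis; circles snapback, squares yw; open triangles mark the 3-read floor of a library that did not list the tag). A-first rank 1 reaches 117582 and 158213 in snapback against 657 and 1200 in yw, while the first-ranked G-first tag lies higher in yw, at 17048 and 4435.

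Of the C-first RNAs, C-TACATAT (rank 1) stood at 50246 and 76003 (22 nt RPM) in snapback and 1202 and 1358 in yw. It was 49.3-fold higher in snapback, or 11.9-fold in all-length RPM (edgeR log2 2.54 ± 0.65, adjusted p = 0.00607). Its sequence lies wholly within the most abundant 30 nt tag of the libraries. Tags of the class with that property numbered 4, 4, 2 and 2 and held 11.8% and 15.4% of its reads in snapback against 1.14% and 1.79% in yw. C-ATCACAG (rank 2) stood at 29543 and 27471 against 402 and 620, 55.8-fold higher in snapback and 13.7-fold in all-length RPM (edgeR log2 2.69 ± 0.70, adjusted p = 0.00661). C-TGGTACG (rank 4) had the widest gap among the C-first leaders, at 7224 and 5702 against 8.66 and 4.12. Its yw levels rested on 13 and 4 reads. Its ratio of 1012 rose to 1570 without yw replicate 1 and fell to 746 without yw replicate 2. It passed edgeR's low-count filter through its snapback reads alone. Its fitted log2 difference of 6.79 ± 1.05 is therefore given without a test.

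The remaining C-first leaders were not higher in snapback. C-GTGATCG (rank 3) stood at 4493 and 7301 (22 nt RPM) in snapback and 6022 and 8554 in yw, so the groups overlapped on that scale. In all-length RPM it was 5.08-fold higher in yw without overlap, at 75.6 and 119 against 442 and 547 (edgeR log2 -3.38 ± 0.70, adjusted p = 0.00197). C-TAAGGGT (rank 5) stood at 914 and 1394 against 3663 and 3505, higher in yw by 3.11-fold, or 12.9-fold in all-length RPM (edgeR log2 -4.72 ± 0.79, adjusted p = 0.00154). The 2 yw libraries were close together for this tag and both exceeded the snapback ones.

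Of the G-first RNAs, G-TGGGGAG (rank 1) stood at 1583 and 1284 (22 nt RPM) in snapback and 17048 and 4435 in yw. It was higher in yw by 7.49-fold (3.09 without yw replicate 1, 11.9 without yw replicate 2), or 32.3-fold in all-length RPM (edgeR log2 -6.06 ± 0.91, adjusted p = 0.00154). G-AGGCTGC (rank 3) was listed in no snapback library and stood at 754 and 2209 in yw, at least 22.5-fold higher in yw than the 3-read floor of snapback replicate 1, or 98.2-fold in all-length RPM. G-CATTTAT (rank 4) showed the reverse, with 1516 and 559 in snapback, no listing in yw replicate 1 and 5.15 in 22 nt RPM from 5 reads in yw replicate 2. G-TGGGTAG (rank 5) stood at 457 and 331 against 401 and 396, with overlapping groups, although in all-length RPM it was 4.19-fold higher in yw. For G-GGGATAT (rank 2), at 1650 and 1859 against 219 and 344, the sign of the edgeR difference depended on scaling: -0.45 ± 0.81 with TMM (adjusted p = 0.617), 0.32 with library totals and 2.64 with 22 nt read totals.

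Across the whole table, edgeR with TMM called 24410 of 30852 tested tags changed at an adjusted p under 0.05 (79.1%). Of the tested tags, 36.8% were called higher and 42.3% lower in snapback. TMM assumes that most tags do not change, and by these calls most did, so the fitted differences depend on an assumption that was not met. The low-count filter left 546 of the 3220 tags in the test, and 397 of these were called (72.7%), 164 higher and 233 lower. That share was below the background of all tags. The A-first RNAs gave 83 higher and 114 lower among 271 tested, the C-first 55 and 51 among 152, and the G-first 26 and 68 among 123, beside 67 and 205 among 394 tags of 22 nt beginning with T. The median log2 difference of the tested members was -0.84, beside -0.71 over all tested tags.

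Most calls fell on tags listed in a single genotype. Of the 397, 119 were called higher and absent from both yw lists, and 155 were called lower and absent from both snapback lists. A tag that passed the filter through one group alone had to differ, so these counts are a description. Among the members listed in all 4 libraries, 165 were tested and 69 called, 24 higher and 45 lower, beside 43.3% called of all tags listed in all 4. Scaling set the balance of directions. With 22 nt read totals the median of all tags moved from -0.71 to 3.78. The calls then split into 289 higher and 114 lower among 523 members tested, beside 17903 and 7658 among all 30527 tags tested. A fit to 22 nt tags alone gave 154 higher and 134 lower among 523 members, beside 228 and 266 among all 922 tags tested. With any 1 library left out, 1 group keeps a single library, and the calls held neither for members nor over all tags.

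The 5 members with the largest fitted increases, among those called and above 100 in 22 nt RPM in either group, were listed in both snapback libraries and in neither yw library. They were picked on this contrast, so their values are given without a test. The highest was another tag named A-AGGGTCG but ending in CCA, at 2910 and 1937 in 22 nt RPM, at least 627-fold above the yw floor and 160-fold in all-length RPM. One more with that name, ending in CCG, stood at 1104 and 811, at least 263-fold above it and 67.0-fold in all-length RPM. Both differed from the tag ending in CCT at position 22 alone, counted from 1 at the 5′ end. The other 3 had no such commoner relative with 20 or more times their reads. The level of A-AAATGAG was 1115 and 1591, that of A-GGGACAG was 881 and 725, and that of C-AGTCCGA was 390 and 1567.

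The 5 largest fitted decreases were absent from both snapback lists. Besides G-AGGCTGC, they included G-CAGAAGA with 738 and 563 (22 nt RPM) in yw, then C-TTCAACG with 458 and 719, then A-TGTAGGT with 650 and 135, and then A-GGAATGT with 535 and 246. Their bounds ran from at least 4.03-fold higher in yw for A-TGTAGGT to at least 22.5-fold for G-AGGCTGC in 22 nt RPM, and from 15.3-fold to 98.2-fold for the same tags in all-length RPM. A-GGAATGT differed at position 1 alone from a 22 nt tag beginning with T that had 707691 and 267720 reads in the yw libraries.

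Grouping by bases 2 to 8 gave 1811 seed families. A single member made up 1396 of them, 415 had more, and 28 had at least 10. The 5 largest families of each library held 63.3% and 70.0% of the reads of the class in snapback against 54.6% and 39.4% in yw, a difference of 19.7 percentage points (12.0 without yw replicate 2, exact permutation p = 0.333 over all libraries). The AGGGTCG family was the largest by members, with 101 tags of which 98 began with A. It stood at 130035 and 169767 (22 nt RPM) in snapback and 1336 and 1604 in yw. This family ranked first in both snapback libraries and seventh and eighth in the yw libraries. The lead tag held 90.4% and 93.2% of the family in snapback, and 49.2% and 74.8% in yw.

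The next 3 families were also led by 1 tag each. The TACATAT family (18 tags) stood at 51807 and 77610 in 22 nt RPM against 1211 and 1468, the CCCTGTA family (17 tags) at 42174 and 54274 against 1197 and 1200, and the ATCACAG family (12 tags) at 30279 and 27747 against 402 and 673. Each had no overlap between groups and lay higher in snapback. The TAGGGAC family (65 tags) was the largest in yw replicate 1 and the second in yw replicate 2, at 3356 and 3308 (22 nt RPM) in snapback and 26665 and 8892 in yw. It had 4 listed tags in each snapback library and 59 and 38 in the yw libraries.

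A seed could also occur behind a T. In 253 families at least 1 tag of 22 nt beginning with T had the same bases 2 to 8. For ATCACAG, 7 T-first tags with the seed stood at 1427 and 2394 (22 nt RPM) in snapback and 271 and 509 in yw, below the C-first tags in each of the 4 libraries. For ATTGCAC, T-first tags were counted only where they differed from its lead member at 4 or more bases beyond the seed. By that count the order differed between the genotypes. Its 4 members stood at 379 and 449 in snapback and 37.3 and 150 in yw. The 12 T-first tags so counted stood at 212 and 205 in snapback and 1166 and 597 in yw.

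The leading 22 nt tags were next set beside the other lengths of the same RNA. For each tag, all listed tags of 19 to 25 nt with the same first 18 nt were counted as 3′ end variants of one start. The start of A-AGGGTCG had 60934, 74772, 95215 and 72812 reads, and 22 nt forms made up 18.2% and 27.6% of them in snapback and 1.22% and 1.72% in yw. Its commonest length was 21 nt and 23 nt in the snapback libraries and 20 nt in both yw libraries. Over all these lengths the start stood at 10520 ± 1289 in all-length RPM in snapback and 4725 ± 99.3 in yw, a ratio of 2.23, beside 36.5 for the 22 nt tag ending in CCT. For comparison, A-GGGTCGG, whose start was 20 nt long most often in snapback and 19 nt in yw, had a ratio of 1.09 over all lengths and 11.9 for the 22 nt tag.

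Other leaders kept the same length in both genotypes. For A-CCCTGTA the 22 nt form held 89.9% and 91.1% in snapback and 95.3% and 94.2% in yw, and the start was 10.3-fold higher in snapback, close to the 9.86-fold of the tag. For C-TACATAT it held 97.5% to 100% in the 4 libraries, and the start was 11.8-fold higher. C-ATCACAG lay between these cases, with 88.0% and 90.3% against 63.9% and 59.8%, the rest of its yw reads being mostly 21 nt long, and its start was 9.41-fold higher in snapback.

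**Figure D3:**
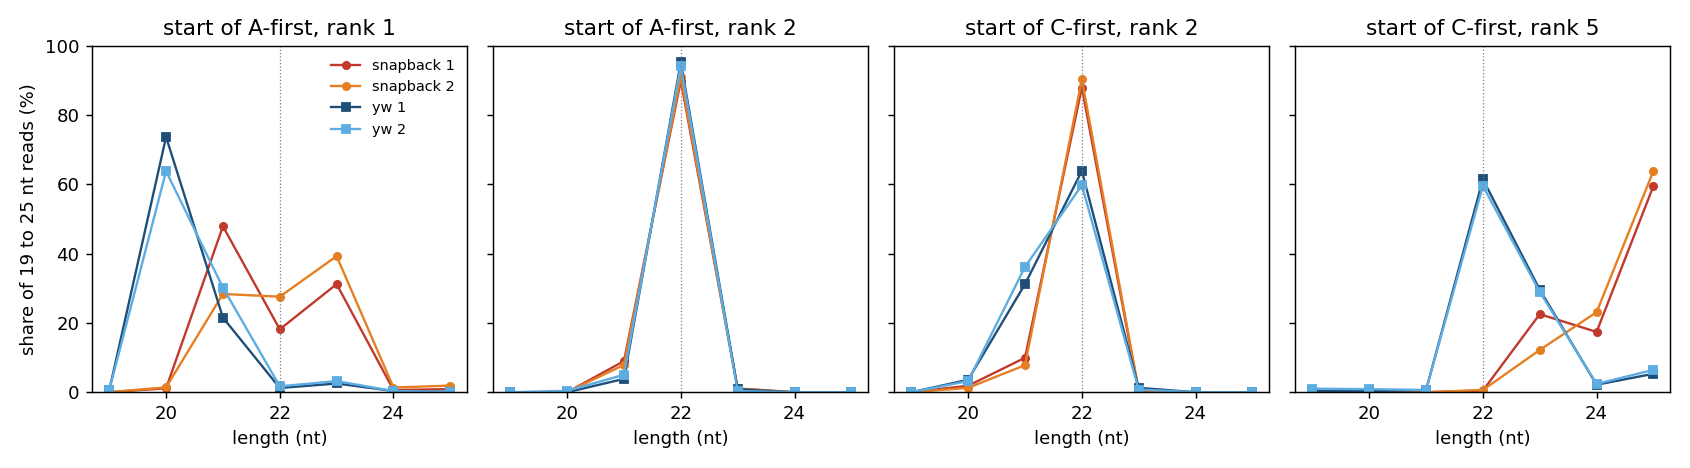
Each panel gives, for 1 start (the tags with the same first 18 nt), the share of its 19 to 25 nt reads (percent) at each length, with a line per library and a dotted line at 22 nt; the panels show, from left to right, the starts of A-AGGGTCG, then A-CCCTGTA, then C-ATCACAG and last C-TAAGGGT. The second start peaks at 22 nt in all 4 libraries, while the first peaks at 20 nt in yw and the last at 25 nt in snapback and 22 nt in yw.

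For C-TAAGGGT the 22 nt tag and its start pointed in opposite directions. Forms of 22 nt made up 0.463% and 0.648% of the start in snapback and 61.5% and 59.6% in yw, and the commonest length was 25 nt in snapback and 22 nt in yw. The start as a whole was 8.21-fold higher in snapback in all-length RPM (3416 ± 131 against 416 ± 30.4), whereas the 22 nt tag was 12.9-fold higher in yw. C-TGGTACG had 47.4% and 58.2% against 1.58% and 1.19%, with a ratio of 6.74 for the start and 239 for the tag in all-length RPM. G-GGGATAT had 47.0% and 55.4% against 4.14% and 9.65%, its yw reads being mostly 24 nt long, and its start was 5.52-fold higher in yw.

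Among the leaders that were higher in yw, A-TAGGGAC was mainly a 21 nt RNA in snapback. Forms of 22 nt were 2.48% of its start in each snapback library and 15.02% and 10.3% in yw, and the start was 3.99-fold higher in yw beside 23.8-fold for the tag. The start of G-TGGGGAG was commonest at 23 nt in all 4 libraries and was 29.3-fold higher in yw, near the 32.3-fold of its 22 nt tag. Over all starts with at least 100 reads (131, 168, 591 and 342), the median share of 22 nt was 6.58% and 8.13% in snapback and 9% and 6.98% in yw. These groups overlapped, with a difference of -0.636 points that changed sign when snapback replicate 1 or yw replicate 1 was left out (exact permutation p = 0.667). Summed over all reads with the start of any member, rather than taken per start, the 22 nt share was 18.9% and 23.2% in snapback and 11.4% and 8.83% in yw, higher in snapback without overlap. The sum gives most weight to the abundant starts.

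The 5′ ends were compared next. Among tags with a mean of at least 100 in 22 nt RPM, 16 pairs had starts 1 nt apart on the same sequence and at least 20 reads per pair in every library. The share of a pair's reads with the later start had no overlap between groups in 13 of the 16 pairs, 6 with the later start higher in snapback and 7 lower. The same held for 76.9% of the 39 such pairs among all 22 nt tags, which include these 16, so the proportion was near the background. A start moved by 1 nt changes the seed. Only reads of exactly 22 nt entered these shares, so a share depends on the lengths of both starts as well as on where they begin.

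In 5 pairs the commoner start among 22 nt reads, by group mean, differed between the genotypes, though in the fifth not in every library. A-TAGGGAC begins 1 nt after A-ATAGGGA, and it held 20.02% and 19.5% of that pair in snapback against 86.8% and 75.9% in yw. C-TGGTACG held 65.3% and 71.4% against 3.46% and 2.19% of its pair with A-CTGGTAC. Likewise A-TTCATGT held 80.3% and 80.4% against 17.9% and 27.6% of its pair with C-ATTCATG, and A-AGGAATT held 78.8% and 86.3% against 10.1% and 14.3% of its pair with A-AAGGAAT. Among reads of exactly 22 nt, the earlier start led in snapback in the first of these, and the later one did in the others. Over 19 to 25 nt, however, the later start of the first pair led in all 4 libraries. Reads with the start of A-TAGGGAC numbered 12130 and 16546 in snapback and 253152 and 78869 in yw. Those with the start of A-ATAGGGA numbered 1545 and 2447 in snapback and 28284 and 12274 in yw. In the fifth pair, G-CCAATTG beside A-GCCAATT, the later start held 67.6% and 64% in snapback and 45.2% and 52.1% in yw, so the yw libraries lay on either side of an even split. The pair of the most abundant tag kept the same majority in both genotypes, with A-GGGTCGG holding 12.6% and 10.7% in snapback and 29.0% and 28.2% in yw. Each of these differences had an exact permutation p of 0.333, the smallest the design allows.

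**Figure D4:**
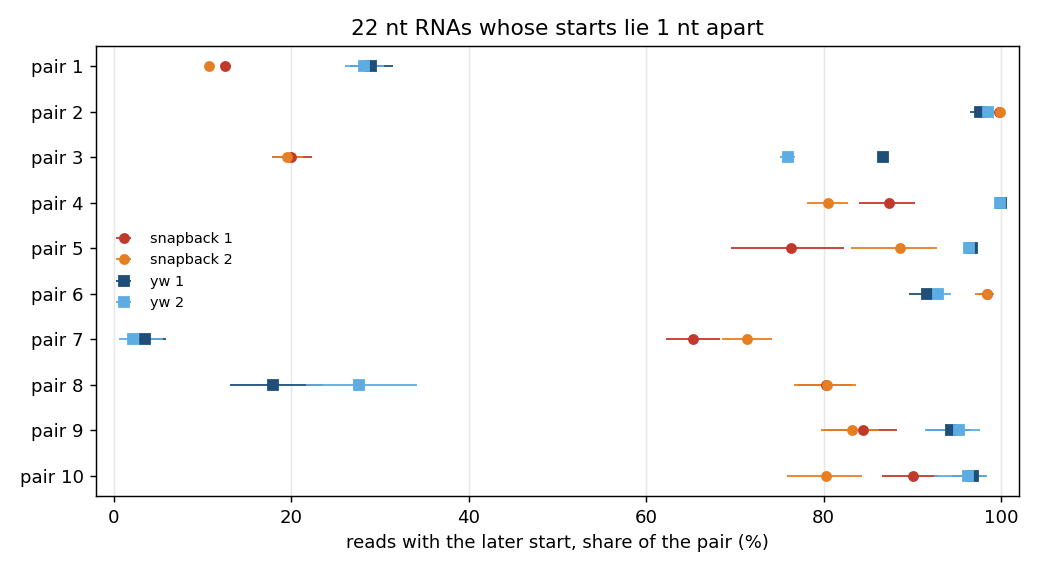
For the 10 most abundant pairs of 22 nt RNAs that begin 1 nt apart, points give the share of the pair's reads with the later start (percent) in each library, with exact 95% binomial intervals as bars (circles snapback, squares yw). The later starts are, from the top, pair 1 A-GGGTCGG, pair 2 A-AGGGTCG, pair 3 A-TAGGGAC, pair 4 C-GTGATCG, pair 5 G-TGGGGAG, pair 6 A-TGTGAGA, pair 7 C-TGGTACG, pair 8 A-TTCATGT, pair 9 C-GGCACAT and pair 10 A-CTGGTAC; pairs 3, 7 and 8 change sides of 50% between the genotypes.

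Some members were single-base relatives of commoner RNAs. Members that differed at 1 base from a 22 nt tag with at least 20 times their reads in the same library numbered 125 and 126 in snapback and 470 and 326 in yw. They held 5.51% and 4.08% of the reads of the class in snapback and 7.40% and 8.58% in yw (exact permutation p = 0.333). The difference sat at the first base in 6 and 6 of these tags in snapback and in 105 and 51 in yw, and in yw 64 and 41 of the latter were relatives of a tag beginning with T. First-base relatives held 0.140% and 0.0964% of the reads in snapback and 3.50% and 3.30% in yw. Such tags may not be separate RNAs, which was not tested.

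The last base shifted too. T ended 59.3% and 61.1% of the reads of the class in snapback and 12.1% and 21.8% in yw, and among 22 nt reads beginning with T it ended 20.6% and 26.9% against 5.69% and 8.16%. A ended 17.3% and 20.6% in snapback and 40.9% and 34.5% in yw. The leading tag in snapback, which ends in T, alone held 27.4% and 31.7% of the snapback reads, so part of this shift is that single tag.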

How the data were processed

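Small RNA libraries of 2 snapback and 2 yw samples were used. The authors deposited, per library, distinct tags with a read count each, per the file headers; the counts are whole and not normalized, the lowest is 4, and the submitters' processing notes name the build dm3. Neither the labels nor the headers name the trimming or counting tools. Replicate numbers were taken from the labels and share only a number (correlation of deviations 0.0303 over 8997 tags).

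Tags were joined by sequence in Python 3.11.15 (pandas 2.3.3, scipy 1.17.1). A tag absent from a list entered as 0. All tags were fitted with edgeR 4.0.16 (TMM, filterByExpr, quasi-likelihood test, Benjamini-Hochberg over all tags tested, threshold 0.05); DESeq2 1.42.0 was an alternative. Library shares were compared by exact two-sided permutation. Standard errors are the fitted log2 difference divided by the square root of the F statistic. Bounds divide the lowest level of one group by the highest 3-read floor of the other.

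Named tags were the 5 most abundant per first base, the 5 largest increases and decreases among called tags of at least 100 reads per 1000000 22 nt reads without overlap, and the leads of the 5 largest families; pairs were those with starts 1 nt apart. Tags in figures carry ranks in place of sequences. The members and lists were chosen with earlier results of these data known. Annotated miRNAs were not analysed here.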

Additional observations from a re-analysis of the deposited data

How the results depend on the processing

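With each library left out in turn, the differences in the share of A, C or G first reads, in the A and G shares, in the 10 leading tags, in the 5 leading families and in single-base relatives kept their sign. The C share difference ran from -1.46 to 9.99 percentage points (-1.46 without yw replicate 1), and the median 22 nt share of starts from -1.65 to 0.374 points (0.138 without snapback replicate 1, 0.374 without yw replicate 1). The count of 397 changed members fell to 33 of 3220 with no low-count filter (1.02%, beside 2.11% of all tags). With any library left out, 1 group keeps a single library, and the calls held neither for members nor over all tags. With a replicate block the count was 0, as it was over all 30852 tags tested, with 212 members at an unadjusted edgeR p under 0.05. The replicate numbers share no batch in the labels. In the other settings, each count is followed by the share of members called and then the share of all tags called. The count was 405 with library totals (74.2% and 80.7%), 377 with DESeq2 (69.0% and 76.1%) and 365 with tags of 18 to 30 nt (72.6% and 75.9%). It was 288 with 22 nt tags only (55.1% and 53.6%) and 446 with absent tags set to 3 reads (81.2% and 85.6%). With 22 nt read totals, an alternative chosen after seeing the data, it was 403 (77.1% and 83.7%). Of the 24 named tags, DESeq2 and the 18 to 30 nt fit kept each one's direction and side of the threshold. The 5 largest increases and 5 largest decreases were picked by the main fit on the same counts. For those tags a refit is not a separate check. With 22 nt read totals A-ATAGGGA turned to 1.93 and gained a call (edgeR adjusted p = 0.0149). Under the same totals C-GTGATCG lost its call, with -0.31 (adjusted p = 0.641), as did G-TGGGTAG, with -0.02 (adjusted p = 0.982). The difference of G-GGGATAT turned to 0.32 with library totals, 0.30 with 22 nt tags only, 0.092 with absent tags at 3 reads and 2.64 with 22 nt read totals, where it gained a call (edgeR adjusted p = 0.0110). With no filter 13 of the 24 lost their call, and with the replicate block or any library left out the 22 called ones lost theirs. With the block the log2 differences of the 24 moved by at most 0.33. Among the shifted pairs, the later-start difference of A-GGTGGGG with G-GTGGGGA ran from -13.5 to 12.6 points (10.9 without yw replicate 1), and that of G-AGCAGAG with A-GCAGAGG from -29.4 to 21.1 (5.19 without snapback replicate 2), as single libraries were left out. The cause of these changes was not tested. Depth limits the snapback side, where a tag under 23.6 to 33.4 reads per 1000000 22 nt reads could not be listed.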

Other observations

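Most reads of the class had a neighbour in length. A tag that equals the 22 nt tag less its last base was listed for members holding 87.3% and 74.3% of the snapback reads and 89.96% and 86.4% of the yw reads. A tag longer by 1 base was listed for members holding 85.0%, 88.2%, 86.2% and 78.5%. Members with neither held 8.18% and 6.65% in snapback and 6.90% and 8.42% in yw, and these groups overlapped. By distinct tags, however, 49.6% and 51.1% in snapback and 40.3% and 44.5% in yw had neither, so the isolated tags were mostly rare ones.

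Tags that face another tag of 18 to 30 nt in the same library on the opposite strand, as the strands of a cut double-stranded RNA would, were few. A reverse-complementary stretch of 15 nt was found for 15 and 29 members in snapback and 34 and 16 in yw. That was 2.49% and 3.68% of the members listed in snapback and 1.55% and 1.23% in yw, higher in snapback without overlap. These members held 0.530% and 0.547% of the reads in snapback and 0.473% and 0.529% in yw. Members ending in CCA, the ending of mature tRNAs, numbered 8 and 5 in snapback and 13 and 12 in yw and held 0.892% and 0.490% against 0.171% and 0.235% of the reads. Most of the snapback reads among them came from a single member with the seed AGGGTCG, which differs from the leading member at position 22 alone. Without it the shares were 0.213% and 0.101% against 0.171% and 0.235%, and the groups overlapped.

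Joining members that share a stretch of 16 nt gave 1454 groups, of which 425 had 2 or more tags, with 2191 of the 3220 members in them and 126 in the largest. Many distinct tags are therefore overlapping pieces of the same sequence and are not independent of each other.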
